A study of Homo sapiens with 12 samples.

Results

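The acute phase proteins described here are 10 genes chosen by symbol: CRP, SAA1, SAA2, SAA4, HP, ORM1, ORM2, LBP, SERPINA1 and SERPINA3. Of these, 9 have a row in each of the 12 deposited tables, among 98711 genes listed there and 27249 with an Ensembl identifier. CRP is not analysed here. RNA had been sequenced from Huh7 and HepG2, human liver cancer cell lines grown in DMEM with serum, as sorafenib-resistant and as parental cells, 3 samples per group and 4 groups in all. Per the labels, both lines carried the wild-type genotype. Resistance had been raised over 8 months of sorafenib, a tyrosine kinase inhibitor, from a starting dose of 10 μmol, and parental cells were untreated. There was 1 resistant population per line, and the sources used here do not say whether the 3 samples of a group came from separate cultures, so that p-values measure only the spread between these samples. The question of each comparison was how transcript levels differed between resistant cells and the parental cells they came from.

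Acute phase proteins are plasma proteins that hepatocytes secrete in changed amounts during inflammation. Interleukin-6 acts through its receptor IL6R, the shared subunit IL6ST (gp130), the JAK kinases and STAT3. Together with C/EBP factors, and with NF-κB downstream of interleukin-1 and TNF, STAT3 drives the positive acute phase genes, while proteins such as albumin and transthyretin are made less. CRP, SAA1 and SAA2 are the members with the steepest inflammatory rise, whereas SAA4 is made constitutively. In RNA of whole cultures, fewer expressing cells and less RNA per cell cannot be told apart.

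Levels are given as FPKM, fragments per exon length and sequencing depth, so that genes can be compared per length. The reads behind a value were calculated back from FPKM and exon length, and a sample held 12290128 to 19286190 of them. Replicates of a group correlated at 0.965 to 0.986 on the log2 scale and differed by more than sampling noise. All 6 hepatocyte lineage markers reached a mean of 1 FPKM in every group, with ALB, AFP and APOB among them, although AFP was called lower in resistant cells of both lines, by 1.21 in Huh7 and by 1.91 in HepG2 on the log2 scale. Of the 15 markers of leukocytes, stromal cells and endothelium, DCN, CDH5, KDR, TEK and CD68 were near 0 in all groups. The collagen genes COL1A1 and COL1A2 were near 0 in HepG2 only. In Huh7 COL1A1 averaged 0.140 FPKM in parental and 0.611 FPKM in resistant cells, and COL1A2 0.133 and 0.977 FPKM, so that the resistant means were 4.36 and 7.33 times higher. COL3A1 of the same list went the other way in Huh7, from 0.183 FPKM in parental to 0.0283 FPKM in resistant cells. PDGFRB stood at 2.48 and 2.42 FPKM there. The summed levels of whole lists differed between the groups as well: the endothelial list fell from 2.58–3.68 FPKM in parental to 1.21–1.61 FPKM in resistant HepG2 samples, and the stromal list from 3.08–4.55 to 1.81–2.26 FPKM. In Huh7 the endothelial list stood at 1.38–1.55 FPKM in parental and 2.14–2.20 FPKM in resistant samples, and the stromal list at 2.63–3.36 and 3.28–4.50 FPKM. The leukocyte list stood at 5.55–7.79 FPKM in HepG2 against 1.25–2.41 FPKM in Huh7. In HepG2 a single gene made up most of each sum. LYZ averaged 4.93 FPKM in parental and 5.32 FPKM in resistant HepG2 cells, against 0.601 and 0.238 FPKM in Huh7. PECAM1 of the endothelial list averaged 3.13 and 1.34 FPKM in parental and resistant HepG2 cells, and PDGFRB of the stromal list 3.58 and 2.07 FPKM. The part of these levels in the results was not tested.

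The members lie in clusters on GRCh38. ORM1 (chr9:114323056-114326475) and ORM2 (chr9:114329869-114333252) are neighbours on the plus strand, 3393 bases apart. SAA1 (chr11:18266174-18269977, plus strand), SAA2 (chr11:18239223-18248643, minus strand) and SAA4 (chr11:18231349-18236893, minus strand) share a second cluster. SERPINA1 (chr14:94376747-94390693, minus strand) and SERPINA3 (chr14:94612377-94624055, plus strand) belong to the serpin cluster, 221683 bases apart. HP (chr16:72054592-72061055) and LBP (chr20:38346356-38377023), both on the plus strand, are each the only member on their chromosome. ORM1 with ORM2, SAA1 with SAA2, and HP with HPR are near-identical pairs, for which the split of reads depends on a counting step that is not given in the sources used here. A readthrough gene spans SAA2 and SAA4, the gene model AL049839.2 shares exons with SERPINA3 on the same strand, and TXNL4B runs over HP on the other strand without a shared exon.

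RefSeq promoters (GRCh38.p14) were at hand for ORM1, SAA4, SERPINA1 with 2 starts, and SERPINA3. Those of ORM1 and SERPINA3 are shown because both genes were lower in resistant HepG2 cells. They are the plus strand of chr9:114322848-114323055 and chr14:94612141-94612376, ending at the base before the gene as the tables place it. Capitals mark the match to an NF-κB motif, searched on both strands as GGGA and CC with any 4 bases between them.
ORM1: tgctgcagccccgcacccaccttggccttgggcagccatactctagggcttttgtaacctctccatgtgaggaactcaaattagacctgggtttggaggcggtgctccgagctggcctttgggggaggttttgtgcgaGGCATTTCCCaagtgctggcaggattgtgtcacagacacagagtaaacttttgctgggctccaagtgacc
SERPINA3: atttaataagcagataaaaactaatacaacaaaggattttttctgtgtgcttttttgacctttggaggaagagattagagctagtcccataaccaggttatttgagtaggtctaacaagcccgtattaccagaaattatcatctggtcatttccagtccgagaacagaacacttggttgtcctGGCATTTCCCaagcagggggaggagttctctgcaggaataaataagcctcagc
The match reads GGCATTTCCC in both, 112 to 103 bases before the RefSeq start of ORM1 and 67 to 58 bases before that of SERPINA3. With the 3 bases after it, both windows hold the 13-base run GGCATTTCCCAAG, which was found on either strand in 2 of 35116 promoter windows of 250 bases, those of these 2 genes. The run was chosen as the longest shared by the pair, so its presence in these 2 windows was fixed by that choice. The other pairs of member windows shared at most 9 bases. The NF-κB motif as such occurs in 22.6% of all windows. A C/EBP motif (TTGCNNAA, found in 9.05% of windows) matched 3 times in the SAA4 window, the type II IL-6 element (CTGGGA, 28.7%) matched in 1 SERPINA1 window, and the STAT motif TTCNNNGAA (6.57%) matched in none of the 5. These matches describe letters and not sites of binding.

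The 9 genes spanned several orders of magnitude, in an order that was largely shared by the groups. SERPINA1 ranked first and ORM1 followed in each of the 4 groups, with ranges that did not overlap. In both HepG2 groups SERPINA3, ORM2 and HP came next in that order, each apart from its neighbour. In parental Huh7 cells HP and ORM2 followed with overlapping ranges, and then SERPINA3 and LBP, which overlapped too. In resistant Huh7 cells ORM2 stood above HP, which overlapped with LBP. LBP and the serum amyloid genes stayed under 1 FPKM in every sample.

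**Figure D1:**
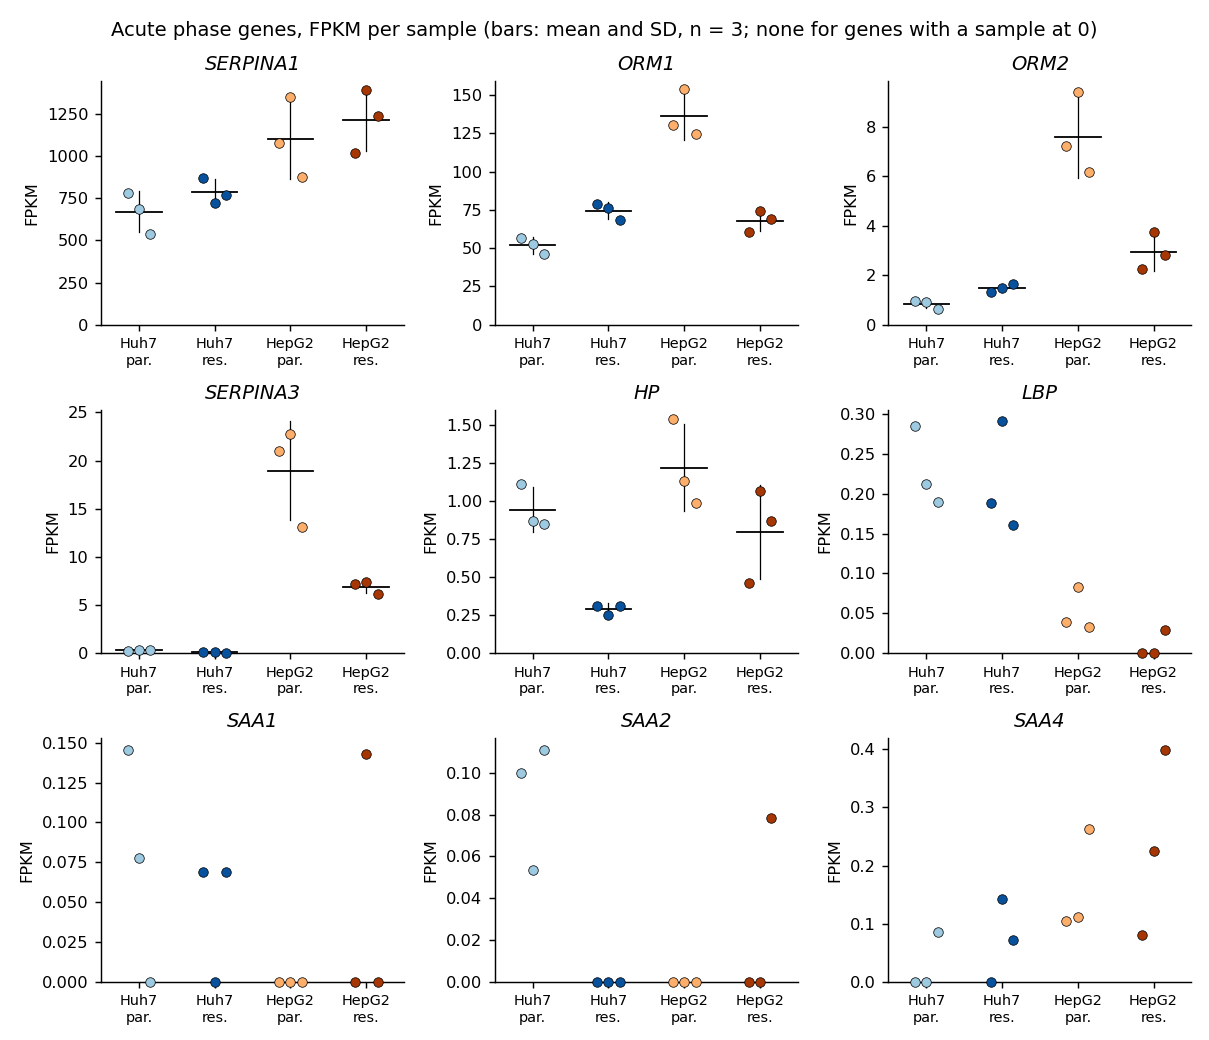
FPKM (y axis, linear, with its own scale per gene) of the 9 acute phase genes in parental (par.) and resistant (res.) Huh7 and HepG2 cells; each point is a sample, and lines give the mean and SD of 3 samples where no sample of the gene was at 0. ORM1, ORM2 and SERPINA3 were lower in every resistant than in every parental HepG2 sample, and HP was lower in every resistant than in every parental Huh7 sample.

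In HepG2, resistant cells held less of both orosomucoid transcripts and of SERPINA3, while SERPINA1 did not move beyond its spread. Of the 5 members tested, 2 were called lower (ORM2 and SERPINA3) and none higher, a call taking both an adjusted p-value under 0.05 and more than 1 on the log2 scale in either direction. Over all 11762 genes tested, 6.27% were called, and 2.98% were called lower. The median log2 fold change of the 5 members was -0.99, against 0.12 over all genes tested. In Huh7, no member was called among the 3 tested with limma (22.6% of 12554 genes were called), although 2 of them, ORM1 and ORM2, had an unadjusted and an adjusted p-value under 0.05 and were higher in resistant cells, as 32.7% of all genes were by adjusted p-value alone. ORM2 passed the filter in Huh7 only through the resistant samples.

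ORM1 encodes the main form of alpha-1-acid glycoprotein, a plasma carrier of basic drugs and lipids. In HepG2 it stood at 130, 154 and 125 FPKM in the parental samples and at 60.6, 74.4 and 68.7 FPKM in the resistant samples. The groups did not overlap, as was so for 15.5% of all genes tested in the lower direction. The mean fell from 136 ± 15.4 to 67.9 ± 6.95 FPKM (SD, n = 3), a 2.01-fold difference, with a log2 fold change of -0.99 (SE 0.15, limma adjusted p = 0.00375) that lay just inside the limit of 1. It passed that limit with a pseudocount of 0.1 FPKM (-1.003, adjusted p = 0.00424), and over 17 alternatives it ranged from -1.11 to -0.90. In Huh7 the parental samples held 56.8, 52.7 and 46.1 FPKM and the resistant samples 78.6, 76.4 and 68.3 FPKM, again without overlap, here in the other direction, which 35.2% of all genes shared. The mean was 51.9 ± 5.40 FPKM in parental and 74.4 ± 5.44 FPKM in resistant cells, with a log2 fold change of 0.52 (SE 0.12, limma adjusted p = 0.00434). Fold changes in Huh7 ran with the GC content of the gene (Spearman's rho 0.62 across genes, which are not independent, and 0.04 in HepG2), and once the GC trend of each library was removed the ORM1 value was 0.11 (adjusted p = 0.224).

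ORM2, the less expressed copy beside it, was 50.6 to 62.2 times lower than ORM1 in Huh7 and 18.2 to 23.7 times lower in HepG2, by group means of the ratio within samples. In HepG2 it was measured at 7.22, 9.42 and 6.19 FPKM in parental and at 2.25, 3.74 and 2.83 FPKM in resistant samples. Every resistant sample was below every parental one, and the mean fell 2.59-fold, from 7.61 ± 1.65 to 2.94 ± 0.751 FPKM. The log2 fold change was -1.13 (SE 0.20, limma adjusted p = 0.00728), and the call ended without HepG2 resistant replicate 1 or without HepG2 parental replicate 2, the smallest change being -0.98. In Huh7 the parental samples were at 0.953, 0.937 and 0.651 FPKM, from 8 to 13 reads each, and the resistant ones at 1.32, 1.501 and 1.66 FPKM, from 19 to 24 reads. Resistant samples were again all higher, with a log2 fold change of 0.43 (SE 0.12, limma adjusted p = 0.0101), but on the reads themselves limma-voom gave 0.73 (adjusted p = 0.126), and without the GC trend the value was 0.02 (adjusted p = 0.864).

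On log2(FPKM + 1) the fitted changes of both orosomucoid genes had opposite signs in the 2 lines, although the Huh7 values were near 0 once the GC trend was removed. The difference itself, tested in all 12 samples as an interaction between line and resistance, was -1.51 on the log2 scale for ORM1 (SE 0.17, limma adjusted p = 5.00e-05) and -1.56 for ORM2 (SE 0.23, adjusted p = 0.000241). Both were called in all 22 alternatives, with ranges of -1.69 to -1.22 and -2.11 to -1.27. By the same rule 28.8% of 13800 genes were called in this test, 10.6% in the direction of these genes.

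SERPINA3 encodes alpha-1-antichymotrypsin, an inhibitor of cathepsin G and mast cell chymase. Parental HepG2 samples held 21.0, 22.8 and 13.1 FPKM and resistant ones 7.17, 7.37 and 6.15 FPKM, without overlap. The mean fell 2.75-fold, from 19.0 ± 5.15 to 6.90 ± 0.655 FPKM, with a log2 fold change of -1.30 (SE 0.21, limma adjusted p = 0.00492), and the call held in all 17 alternatives. AL049839.2, with which it shares exons, was at 1.04–1.22 FPKM in parental and 0.517–0.982 FPKM in resistant HepG2 samples. In Huh7 SERPINA3 was at the foot of the scale, at 0.2003, 0.379 and 0.297 FPKM in parental and 0.0947, 0.124 and 0.0735 FPKM in resistant samples, and did not enter the test. Its reads, 18, 32 and 24 against 9, 12 and 7, still set the groups apart. The ratio of resistant to parental reads, scaled by depth, was 0.337 in Huh7 (95% interval 0.210 to 0.526) and 0.373 in HepG2 (0.353 to 0.395); these intervals cover counting error only. With limma-voom on the reads, an alternative chosen after seeing the data that asks for 10 reads in place of 1 FPKM, the log2 fold change in Huh7 was -1.57 (SE 0.44, adjusted p = 0.00254).

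For SERPINA3 the difference between the lines depended on the scale. On log2(FPKM + 1), which understates changes at low levels, the interaction was -1.07 (SE 0.24, limma adjusted p = 0.00297). With limma-voom on reads it was 0.17 (adjusted p = 0.812), so that the fall in proportion to the parental level was not shown to differ between the lines.

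SERPINA1, alpha-1-antitrypsin, restrains neutrophil elastase and was among the most abundant transcripts of both lines, at rank 5 to 21 of the Ensembl genes of a sample and 0.296% to 0.663% of their summed FPKM. Parental Huh7 samples held 782, 685 and 540 FPKM, and resistant ones 869, 723 and 766 FPKM. Parental HepG2 samples held 1075, 1349 and 877 FPKM, and resistant ones 1017, 1389 and 1235 FPKM. The groups overlapped in both lines. The log2 fold change was 0.25 in Huh7 (95% interval -0.15 to 0.64, limma adjusted p = 0.226), turning to -0.20 once the GC trend was removed, and 0.15 in HepG2 (95% interval -0.32 to 0.62, adjusted p = 0.624), which turned to -0.000479 without HepG2 parental replicate 3. At least 42743 reads per sample stood behind these values, so the width of the intervals came from the samples and not from counting.

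HP encodes haptoglobin, which binds free haemoglobin. Parental Huh7 samples were at 1.11, 0.868 and 0.847 FPKM, from 108, 79 and 74 reads, and resistant ones at 0.312, 0.249 and 0.311 FPKM, from 32, 26 and 32 reads. All resistant samples were below all parental ones, as was so for 39.2% of the genes tested, but with only 1 sample over 1 FPKM the gene was not tested in this line. The ratio of reads was 0.307 (95% interval 0.239 to 0.391, counting error only), and limma-voom on reads, with the filter chosen after seeing the data, gave a 3.35-fold lower level, a log2 fold change of -1.75 (SE 0.27, adjusted p = 1.10e-06). With no filter on low values, limma on log2(FPKM + 1) gave -0.59 (adjusted p = 0.00262). TXNL4B, on the other strand, was at 5.92–7.68 FPKM in parental and 13.8–15.3 FPKM in resistant Huh7 samples, the opposite direction. In HepG2, HP was at 1.54, 1.13 and 0.988 FPKM in parental and 0.459, 1.06 and 0.871 FPKM in resistant samples. These groups overlapped, with a log2 fold change of -0.31 (SE 0.18, 95% interval -0.73 to 0.11, limma adjusted p = 0.256). The difference between the lines was 0.28 (adjusted p = 0.240) on log2(FPKM + 1) and 1.12 (adjusted p = 0.0372) with limma-voom.

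LBP, which hands bacterial lipopolysaccharide to CD14, gave 10, 7 and 6 reads in parental and 7, 11 and 6 in resistant Huh7 samples, at most 0.291 FPKM. With limma-voom on reads the log2 fold change was -0.20 (SE 0.53, adjusted p = 0.768). HepG2 samples gave at most 2 reads each, 4 in the parental and 1 in the resistant group.

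The serum amyloid A genes encode apolipoproteins of high-density lipoprotein and were barely detected. SAA1 gave 7 reads over all 12 samples, with 7 samples at 0, and SAA4 gave 18 reads with 3 samples at 0. In no group did SAA1 exceed 3 reads in sum (exact Poisson 95% interval 0.619 to 8.77 for 3 reads). SAA4 gave 1 and 3 reads in parental and resistant Huh7 cells, and 5 and 9 in parental and resistant HepG2 cells, and in both lines the 95% interval of the depth-scaled ratio included equal levels. SAA2 gave 4, 2 and 4 reads in the parental Huh7 samples and none in the 3 resistant ones. The 95% interval of the depth-scaled ratio of resistant to parental reads reached up to 0.397, for counting error only. In HepG2 its only reads were 3 in a single resistant sample. For these genes 3 reads in a sample corresponded to between 0.0751 and 0.336 FPKM, and differences under that level were not detectable at this depth.

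**Figure D2:**
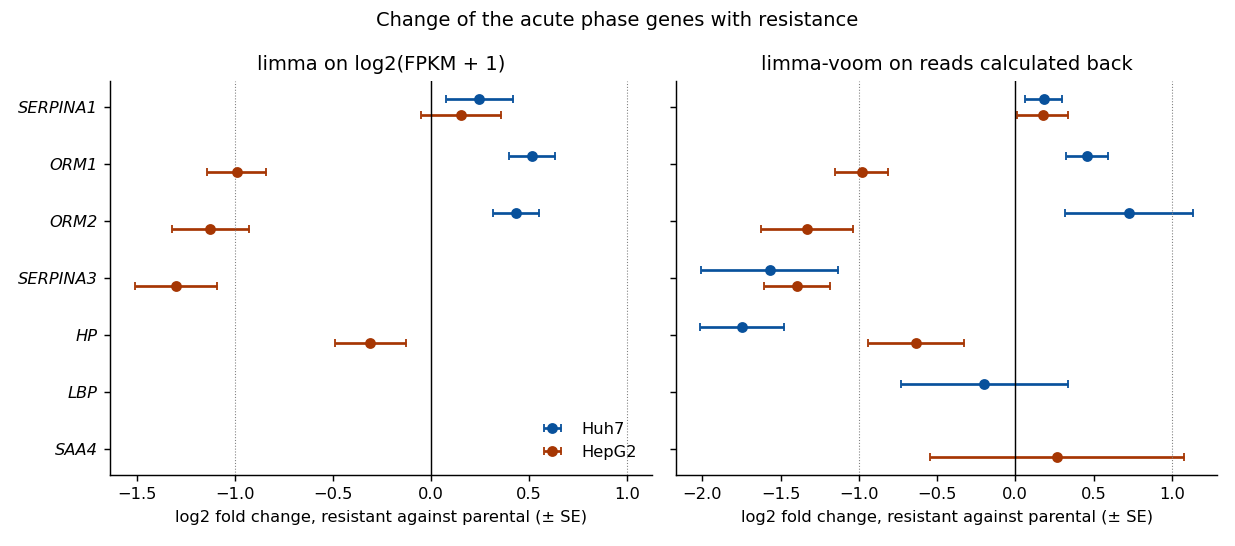
Log2 fold change of resistant against parental cells (x axis, ± SE) for each acute phase gene that could be tested, in Huh7 (blue) and HepG2 (red), with limma on log2(FPKM + 1) at the left and limma-voom on calculated reads at the right; dotted lines mark the limit of 1, and SAA1 and SAA2 are not drawn. ORM1 and ORM2 lie right of 0 in Huh7 and left of 0 in HepG2 in both panels, and the SERPINA3 points of the 2 lines, -1.57 and -1.40 at the right, lie side by side.

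The parental lines already differed in these genes. Of the 5 members tested, 3 were called higher in parental HepG2 than in parental Huh7 cells and none lower, where 11.9% of 13800 genes were called in that direction and 30.2% in either. The parental groups did not overlap for 4 of the 5, all higher in HepG2, as for 28% of all genes. SERPINA3 showed the widest gap, 64.9-fold by mean FPKM, with a log2 difference of 3.92 (SE 0.17, limma adjusted p = 3.01e-09). It passed the filter only through the HepG2 samples. The difference was 2.21 for ORM2 (SE 0.16, adjusted p = 3.05e-07) and 1.38 for ORM1 (SE 0.12, adjusted p = 1.53e-06). SERPINA1 was higher by 0.71 (adjusted p = 0.00654), under the limit for a call, and HP by 0.19 (adjusted p = 0.246) with overlapping groups. LBP went the other way, with 4 reads in parental HepG2 against 23 in parental Huh7 samples and a limma-voom value of -1.93 (adjusted p = 0.00825). So did SAA2, with no reads in parental HepG2 against 10 in parental Huh7 samples and a limma-voom value of -2.62 (adjusted p = 0.00600). Both values come from the filter of 10 reads chosen after seeing the data. SAA2 passed that filter only through the parental Huh7 samples, and LBP only through the Huh7 samples, where they were high. The direction of these 2 values was therefore tied to how the genes were admitted, and they are given as a description. Under the filter of 1 FPKM neither gene was tested, so neither could be called lower. This comparison shares its samples with the others, so their values are not independent.

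Levels across the 12 samples were also compared between genes on log2(FPKM + 1), as a description. ORM1 and ORM2 correlated at 0.92, and ORM2 and SERPINA3 at 0.93. HP was the least like the rest, at 0.36 with ORM1 and at most 0.62, with SERPINA3. Among 13623 genes the closest pattern was that of SMOX for ORM1 (Pearson's r 0.985), PLIN2 for ORM2 (0.992), CFB for SERPINA3 (0.993), P4HB for SERPINA1 (0.987) and ADCY9 for HP (0.945). The samples fall into 4 groups, which these values largely reflect.

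A list of 20 other positive acute phase proteins was tested with limma as the members were. The Huh7 values of this and the following lists keep the trend with GC content described for ORM1. Their sizes without that trend are not given here. Of 15 tested in HepG2, 6 were called lower and none higher, with a median log2 fold change of -0.70. Over all genes 2.98% were called lower and 3.29% higher in HepG2, with a median of 0.12. HAMP, the iron hormone hepcidin, fell by 2.75 (adjusted p = 0.00188), LCN2, a siderophore-binding lipocalin, by 2.48 (adjusted p = 0.00283), the fibrinogen chain FGB by 1.98 (adjusted p = 0.000827) and ITIH3 by 1.33 (adjusted p = 0.00418). HAMP and LCN2 passed the filter in HepG2 only through the parental samples, where they were high. In Huh7, 3 of 15 tested were called higher and 3 lower, with a median of -0.07; over all genes 8.59% were called higher and 14% lower, with a median of -0.04. HAMP rose by 2.11 (adjusted p = 3.61e-05) and AGT, angiotensinogen, by 1.82 (adjusted p = 4.27e-05), whereas CP, ceruloplasmin, fell by 2.20 (adjusted p = 3.27e-05) and C3 by 1.76 (adjusted p = 3.16e-05). SERPING1 and FGL1 were the other higher and the other lower gene. FGL1 passed the filter in Huh7 only through the parental samples. CP, with a single resistant Huh7 sample over 1 FPKM, also needed the parental samples to pass, where it was high. HAMP needed the resistant Huh7 samples, since a parental one was under 1 FPKM. HAMP thus had opposite signs, from 0.555–1.20 to 6.43–8.91 FPKM in Huh7 and from 3.87–13.2 to 0.157–0.436 FPKM in HepG2, and the interaction was -4.86 (limma adjusted p = 1.05e-05). For FGB, which stood at 0.15 in Huh7 (adjusted p = 0.393), the interaction was -2.12 (adjusted p = 6.85e-05).

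A further list held 12 negative acute phase proteins, which are made less in inflammation. In Huh7, 4 of 10 tested were called higher and 1 lower, against 8.59% and 14% of all genes, with a median of 0.59. The cortisol carrier SERPINA6 rose by 1.63 (adjusted p = 1.87e-05), APOA2 by 1.55 (adjusted p = 5.81e-05) and the retinol carrier RBP4 by 1.24 (adjusted p = 0.000157), AHSG being the fourth, while coagulation factor F12 fell by 2.24 (adjusted p = 1.37e-05). F12 passed the filter in Huh7 only through the parental samples. In HepG2, 3 of 10 were called higher and none lower, with a median of 0.26. These were the thyroxine carrier SERPINA7 at 1.56 (adjusted p = 0.000438), APOA2 at 1.26 (adjusted p = 0.00235) and SERPINA6 at 1.03 (adjusted p = 0.0065). Over all genes 3.29% were called higher in HepG2. Albumin (ALB) was at -0.93 in HepG2 (adjusted p = 0.0299) and at -0.46 in Huh7 (adjusted p = 0.0458), under the limit for a call in both lines.

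**Figure D3:**
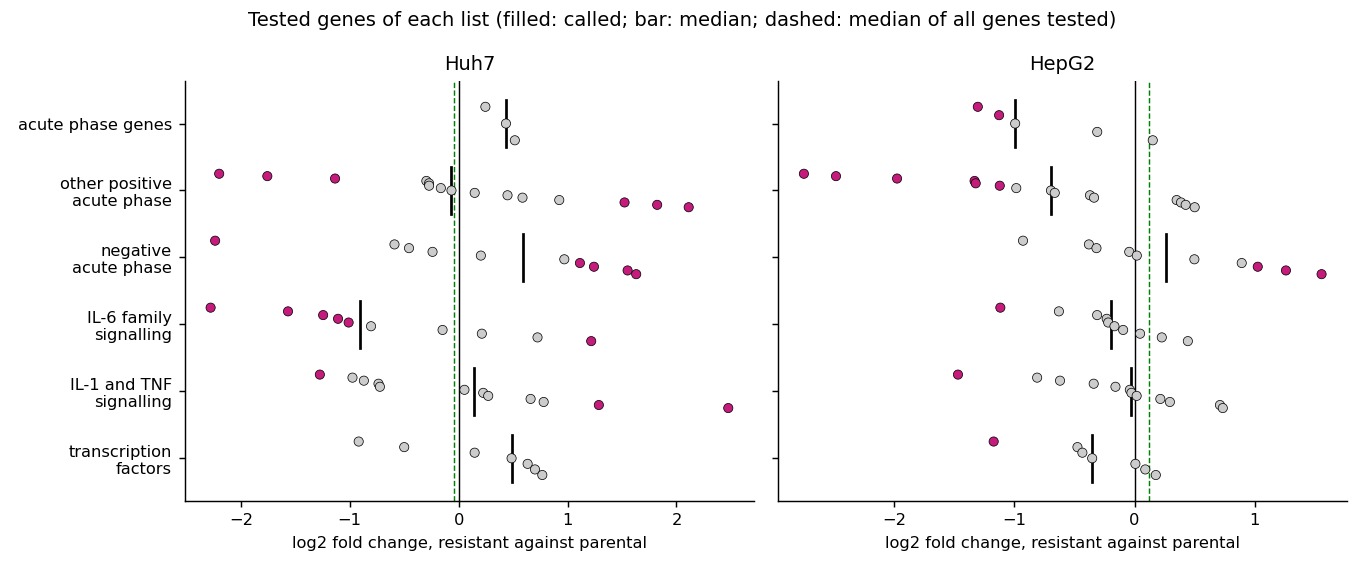
Log2 fold change of resistant against parental cells (x axis) of every tested gene of the acute phase genes and 5 lists around them, in Huh7 and HepG2; pink points were called, bars are list medians and the dashed line is the median of all genes tested. In HepG2 the acute phase genes have a median of -0.99 and the other positive acute phase proteins one of -0.70, left of the 0.12 of all genes, and in Huh7 the IL-6 family has the lowest median, -0.91.

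Of the IL-6 family, the ligand-binding IL6R and the shared subunit IL6ST changed in opposite directions in Huh7, and LIFR, which pairs with IL6ST in a related receptor, changed in the direction of IL6ST. The Huh7 values are those with the GC trend kept, and its part in them is not given here. IL6R rose from 5.20 ± 0.656 to 13.4 ± 0.194 FPKM (log2 fold change 1.22, adjusted p = 5.50e-05). IL6ST fell from 11.3 ± 2.68 to 3.095 ± 0.304 FPKM (-1.57, adjusted p = 8.35e-05) and LIFR, which binds leukaemia inhibitory factor, from 30.6 ± 4.69 to 5.50 ± 0.722 FPKM (-2.28, adjusted p = 1.29e-05). JAK2, which passed the filter in Huh7 only through the parental samples, fell by 1.24 (adjusted p = 6.04e-05) and the oncostatin M receptor OSMR by 1.11 (adjusted p = 9.55e-05). With PTPN11, 5 of 10 tested genes were called lower and 1 higher, against 14% and 8.59% of all genes, and the median was -0.91. STAT3 was higher at 0.72 (adjusted p = 0.00108), under the limit for a call. In HepG2, where 6.27% of all genes were called, OSMR was the only gene of 10 called, from 68.7 ± 3.78 to 31.1 ± 0.349 FPKM (-1.12, adjusted p = 0.00108). IL6R, at 14.4 ± 1.41 FPKM in parental and 8.97 ± 1.12 FPKM in resistant HepG2 cells, changed by -0.63 (adjusted p = 0.0211), STAT3 by -0.31 (adjusted p = 0.189) and IL6ST by -0.17 (adjusted p = 0.546). The change differed between the lines by -1.85 for IL6R (adjusted p = 8.94e-06), 1.40 for IL6ST (adjusted p = 0.000807) and -1.04 for STAT3 (adjusted p = 0.00093). IL6 itself averaged at most 0.11 FPKM in any group. SOCS3 is not analysed here.

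**Figure D4:**
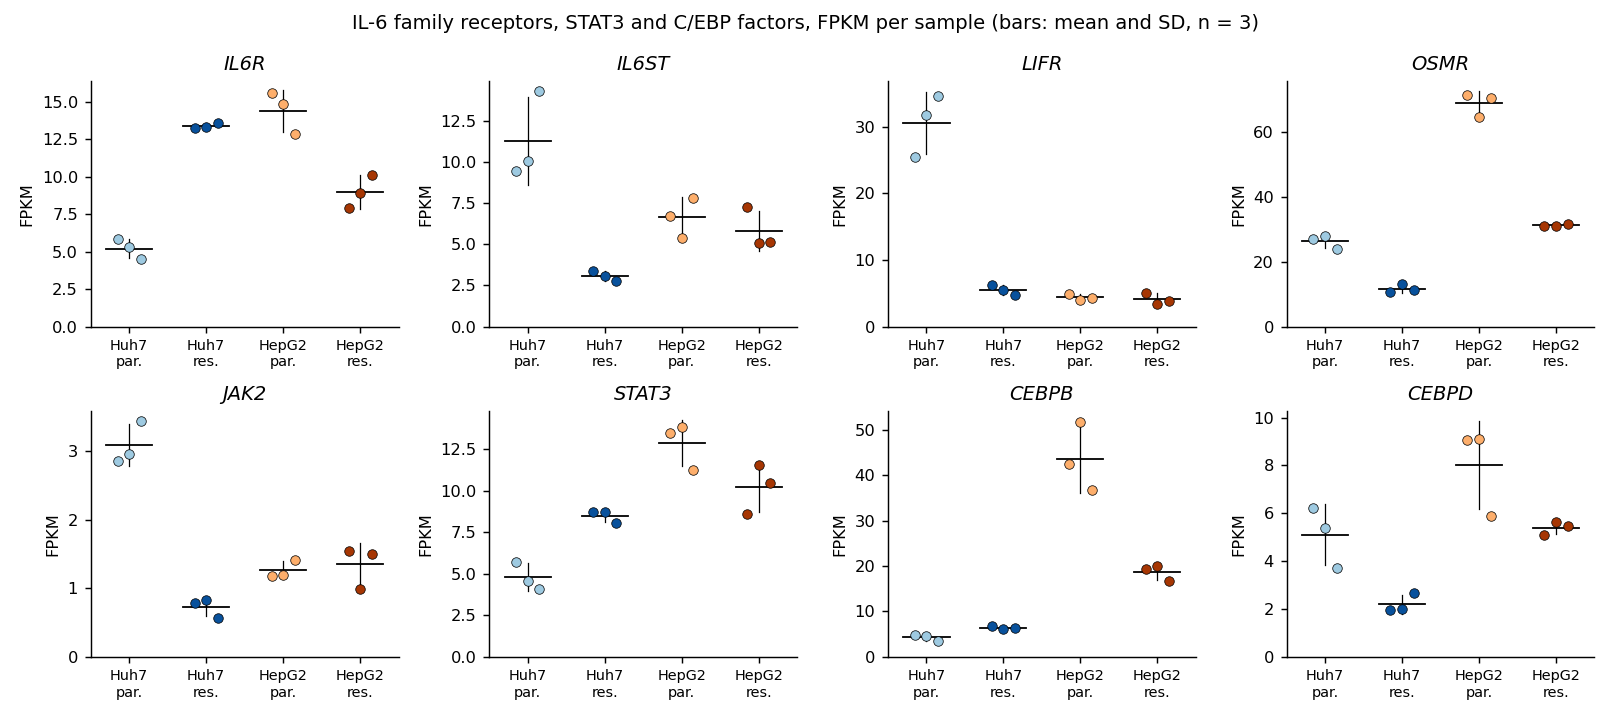
FPKM (y axis, linear, with its own scale per gene) of receptors, kinase and transcription factors of IL-6 signalling in parental (par.) and resistant (res.) cells; each point is a sample and lines give the mean and SD of 3 samples. IL6R rises in Huh7 from 5.20 to 13.4 FPKM on average and IL6ST and LIFR fall there, while OSMR is lower in the resistant samples of both lines and CEBPB falls in HepG2 from 43.7 to 18.7 FPKM.

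Of the transcription factors that bind acute phase promoters, CEBPB, a main C/EBP factor of the response, fell in HepG2 from 43.7 ± 7.50 to 18.7 ± 1.69 FPKM (-1.17, adjusted p = 0.00255). In Huh7 it was 6.42 ± 0.326 FPKM in resistant and 4.33 ± 0.751 FPKM in parental cells (0.49, adjusted p = 0.00921), and the interaction was -1.66 (adjusted p = 6.38e-05). It was the only factor called in HepG2 among the 7 analysed here, where 6.27% of all genes tested were called. None of these 7 was called in Huh7 by limma, although 6 had an adjusted p-value under 0.05, as 70.1% of all genes tested did. CEBPD stood at -0.92 in Huh7 (adjusted p = 0.0016) and -0.47 in HepG2 (adjusted p = 0.0941), and HNF4A at 0.77 (adjusted p = 0.000992) and 0.01 (adjusted p = 0.981).

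Among 12 tested genes of interleukin-1 and TNF signalling, 2 were called higher in Huh7, TNFRSF1A at 2.48 (adjusted p = 1.18e-05) and the adaptor MYD88 at 1.29 (adjusted p = 0.000107), and 1 lower, IL1R1 at -1.27 (adjusted p = 0.000109). Over all genes 8.59% were called higher and 14% lower in Huh7, 22.6% together, so the list was called about as often as genes at large. In HepG2, where 6.27% of all genes were called, only NFKBIZ of this list, a nuclear NF-κB cofactor, was called, at -1.47 (adjusted p = 0.00088). Of 6 tested relatives and chromosomal neighbours of the members, SERPINA11 was called higher in Huh7 (1.10, adjusted p = 0.000396) and HPR, the haptoglobin-related gene, lower (-1.27, adjusted p = 0.000158). Over all genes 22.6% were called in Huh7. SERPINA11 passed the filter there only through the resistant samples. HPR, with a single resistant Huh7 sample over 1 FPKM, needed the parental samples to pass. None of the 6 was called in HepG2 by limma, where 6.27% of all genes were called. The members of these lists were chosen with earlier results known, and SERPING1, FGL1, AHSG and PTPN11 were named after their values were seen.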

How the data were processed

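Each deposited table holds 1 value per gene for 1 sample of RNA sequencing, grouped by the sample labels. The FPKM values, as deposited, had been made by the authors by scaling reads or fragments by gene length and depth; no unit is stated, and this follows from the values, which fall on whole multiples of a step per sample once multiplied by exon length (RPKM cannot be told apart). Per the labels' processing notes, bcl2fastq and GRCh38 were used; the aligner and counter are not given in the sources used here. For RNA extraction the labels give an RNeasy kit and the methods TRIzol.

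Reads were calculated back with union exon lengths from GENCODE release 29, and 96.4% of values of up to 2000 reads were within 0.05 of a whole number. Genes reaching 1 FPKM in 3 or more samples of the fit were tested on log2(FPKM + 1) with limma 3.58.1 in R 4.3.3 (trend on mean expression, two-sided, Benjamini-Hochberg over all genes tested). The study's design had been written for counts or normalized values, and the latter applied. Within a line 6 samples were fitted; all 12 were fitted for the interaction and for the parental lines. The fit was tested on simulated data. Tables were read with Python 3.11.15 and pandas 2.3.3.

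The members, the lists and the tests were chosen with earlier results of these data known. Named are all members; of each list, the genes called, at most the 4 largest per line; the fixed genes IL6R, IL6ST, STAT3, SOCS3, CEBPB, CEBPD and HNF4A; and the nearest gene to each tested member by Pearson's r. Not every gene meeting this rule is reported here. Promoters are RefSeq entries. Read intervals are exact and cover counting error only, since reads lacking molecular identifiers may repeat a molecule. CRP, APCS, SOCS3, CEBPA and the SAA2-SAA4 readthrough are not analysed here.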

Additional observations from a re-analysis of the deposited data

Results flagged for a closer look

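The change with resistance differed between HepG2 and Huh7 for 3 members, by the interaction test over all 12 samples. All 3 were called in it, as were 28.8% of 13800 genes, 10.6% in the direction of these 3. For ORM1 the HepG2 change minus the Huh7 change was -1.51 on the log2 scale, and for ORM2 it was -1.56. Both genes were lower in every resistant HepG2 sample than in the parental samples, as were 15.5% of all genes. They were higher in every resistant Huh7 sample, as were 35.2% of all genes. Once the GC trend was removed, the Huh7 changes were 0.11 for ORM1 (limma adjusted p = 0.224) and 0.02 for ORM2 (adjusted p = 0.864). For SERPINA3 the difference between the lines was -1.07 on log2(FPKM + 1), but 0.17 (adjusted p = 0.812) with limma-voom on reads. With limma-voom and a filter of 10 reads, the gene fell by 1.57 in Huh7 and by 1.40 in HepG2 on the log2 scale. The part of low read numbers of SERPINA3 in Huh7, at most 32 per sample, in that difference between scales was not tested. Groups of 3 samples were not examined for single outlying samples.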

How the results depend on the processing

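The number of members called in Huh7 was 0, and 2 with no limit on the fold change (ORM1 and ORM2). It was 3 (HP, SAA2 and SERPINA3) with limma-voom and a filter of 10 reads, an alternative chosen after seeing the data. SAA2 passed that filter in Huh7 only through the parental samples, where it was high. Leaving out each sample in turn gave 0 to 0 members called. In HepG2 it was 2, and 1 to 3 without each sample in turn; ORM1 made it 3 with a pseudocount of 0.1 FPKM, median-ratio or upper-quartile scaling, no GC trend or no limit on the fold change. Between the lines it was 3 for the interaction (2 to 3 without each sample) and 3 for the parental cells (3 to 3), the latter 5 with limma-voom and 10 reads, which admitted LBP and SAA2. Of the members' log2 fold changes under the alternatives, 322 kept direction and call, 14 gained a call, 6 lost it and 8 reversed. Without the GC trend of each library, values reversed to -0.20 for SERPINA1 in Huh7, to -0.066 for JAK2 and -0.064 for HNF4A in HepG2, and to 0.23 for the SERPINA1 interaction. Median-ratio scaling gave -0.018 for JAK2 and -0.11 for HNF4A in HepG2, and upper-quartile scaling -0.075 for HNF4A. The SERPINA3 interaction was 0.17 with limma-voom and 0.18 with 10 reads, and it lost its call with a pseudocount of 0.1 FPKM (-0.44), without the GC trend (-0.76), and without HepG2 parental replicate 1 or 2. Without each sample in turn, HepG2 values ranged from -0.015 to 0.16 for JAK2, -0.14 to 0.066 for TNFRSF1A, -0.23 to 0.011 for LIFR, -0.11 to 0.14 for HNF4A, -0.56 to 0.10 for SERPINA11 and -0.00048 to 0.31 for SERPINA1, and the SERPINA1 interaction from -0.25 to 0.065. Those values were not past the threshold in the reported fit. The cause of these changes was not tested. Deviations of same-numbered samples from their group means correlated at -0.21 to 0.08 in Huh7 and -0.01 to 0.41 in HepG2. Samples of different numbers gave -0.31 to 0.26 in Huh7 and -0.40 to 0.20 in HepG2. These few values overlap and do not settle whether the numbers pair the samples. With the replicate number as a block the counts were 0, 2, 3 and 3. Depth limits LBP and the serum amyloid genes, which had at most 11 reads in a sample.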
